A study of Homo sapiens with 4 samples.

Results

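The genes described here are the human histone lysine methyltransferases and demethylases and the protein arginine methyltransferases, measured in newly made RNA of K562 cells, an established human chronic myeloid leukaemia line. Members were the protein-coding genes of GENCODE 29 whose symbols begin with KMT, KDM or PRMT and a number, with SETD, EHMT, EZH or SUV39H, or are NSD1, NSD2 or NSD3, with the Y-linked KDM5D left out. The rule uses symbols and no measured value, and it found 55 genes among the 60279 human gene identifiers counted, 36 methyltransferases and 19 demethylases. The members are different genes of 1 cell line, not replicates of a condition.

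The assay was TT-seq (transient transcriptome sequencing), which feeds cells the uridine analogue 4-thiouridine briefly and sequences the RNA that carries it, so that reads come mainly from RNA made during the labelling. All 4 libraries came from untreated cells given 1 mM 4-thiouridine, 2 after 5 min of labelling and 2 after 15 min. RNA of Drosophila S2 cells was added to each sample as a spike-in before enrichment, so that human reads can be scaled to fly reads. No genotype or drug differs between the groups, which are told apart by labelling time alone. The labels do not say that the replicates came from separate cultures, so p-values here speak of library-to-library spread alone, and that spread may be technical.

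Methylation of lysine and arginine side chains on histones marks regions of chromatin as active or silent. Lysine methyltransferases mostly carry a SET domain, arginine methyltransferases (PRMTs) have a different fold, and both take the methyl group from S-adenosylmethionine. Demethylases of the LSD1 type (KDM1A and KDM1B) use a flavin cofactor, whereas the other KDM enzymes carry a Jumonji (JmjC) domain that needs iron and 2-oxoglutarate. Methylation of H3K4 is known from active promoters and enhancers, that of H3K36 from transcribed gene bodies, and that of H3K9, H3K27 and H4K20 from silent or compacted chromatin. Several of these enzymes are mutated, rearranged or drugged in leukaemia.

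RefSeq promoter windows of build GRCh38.p14, running from 250 bases before to 50 bases after the start, were found for 52 of the 55 members. The 150 bases before the RefSeq start are given for members at the extremes of the results below, to show where they are transcribed. They are the 2 that gained most share of the labelled RNA (KDM2A and SETD6) and the 2 that lost most share (KDM1B and PRMT1). The windows lie on the + strand at chr11:67119113-67119262, chr16:58515367-58515516, chr6:18155272-18155421 and chr19:49677121-49677270 and read 5′ to 3′. Capitals mark matches, on either strand, to the E-box CACGTG, to the GC box, whose letters are GGGCGG, to the ETS motif CCGGAAG and to the CCAAT box, whose letters are its name, and these matches did not overlap one another here.
KDM2A: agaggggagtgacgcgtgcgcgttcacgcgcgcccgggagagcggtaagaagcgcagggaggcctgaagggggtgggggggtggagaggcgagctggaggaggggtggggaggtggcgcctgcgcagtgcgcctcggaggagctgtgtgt
SETD6: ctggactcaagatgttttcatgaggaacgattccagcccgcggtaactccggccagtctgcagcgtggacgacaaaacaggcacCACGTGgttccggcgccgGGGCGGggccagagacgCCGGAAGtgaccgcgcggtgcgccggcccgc
KDM1B: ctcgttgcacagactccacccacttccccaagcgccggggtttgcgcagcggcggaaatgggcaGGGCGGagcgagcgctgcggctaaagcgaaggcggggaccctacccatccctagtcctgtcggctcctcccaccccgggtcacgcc
PRMT1: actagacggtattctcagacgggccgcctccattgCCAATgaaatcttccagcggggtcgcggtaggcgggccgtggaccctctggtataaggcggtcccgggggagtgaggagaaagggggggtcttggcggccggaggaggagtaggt
In these 150 bases KDM2A held no match, SETD6 held an E-box, a GC box and an ETS motif, KDM1B held a GC box and PRMT1 held a CCAAT box. Over the whole windows of 300 bases, GGGCGG was found in 75.0% of the 52 members and in 44.6% of all 27305 promoters, and CACGTG in 17.3% and 7.43%. TATAAA was found in 0 of 52 members and in 11.95% of all promoters, CCAAT in 34.6% and 35.7%, CCGGAAG in 15.4% and 10.7%, AGATAA (the GATA motif) in 7.69% and 10.5% and the NRF1 motif in 1.92% and 1.36%. The member promoters had a median GC content of 66.2%, against 58.3% over all promoters. A match is a run of letters and not a measured binding site.

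The libraries held 4339981 to 5051370 human reads and 308978 to 897018 fly reads, with 4.84 and 5.84 human reads per fly read after 5 min and 15.8 and 15.3 after 15 min. Of 14 K562 markers listed for a check of the cell type, such as GATA1 and the globin genes, all 14 had reads. They summed to 10694 to 14290 per library, of which TFRC alone gave 5441 to 6663 and GATA1 486 to 693. Summed reads were 47 to 71 for 4 T cell markers, 12 to 53 for 3 B cell markers, with MS4A1 at 0, 88 to 112 for 3 monocyte markers and 4 to 12 for 3 fibroblast markers. The 4 epithelial markers summed to 1336 to 1785, and these were reads of the keratins and of EPCAM, with CDH1 at 0 or 1. Their part in the results was not tested. In bulk RNA of this kind, fewer cells and less RNA per cell cannot be told apart.

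Labelled RNA of the methylation enzymes accumulated between 5 and 15 min of labelling. On the fly scale, where each library's reads are divided by its fly total, 52 of 52 members that passed the filter on low counts rose (edgeR quasi-likelihood test, Benjamini-Hochberg adjusted p under 0.05 over all 17322 genes tested), as did 98.4% of all genes and 98.5% of protein-coding genes, and 0 fell, against 0.0115% of all genes and 0% of protein-coding genes. The fly-scaled reads of both 15 min libraries lay above those of both 5 min libraries for all 52, against 99% of all genes and 99.1% of protein-coding genes, and below them for 0, against 0.0404% and 0.0346%. The share of members rising was therefore that of the background. The 3 members not tested, PRMT8, KDM4E and KDM4F, had 0 reads in every library. The limit that a count of 0 allows, 3 reads, is 0.594 to 0.691 reads per 1000000 human reads in these libraries and covers counting error only. PRMT8 is known as a brain enzyme, and KDM4E and KDM4F are relatives of KDM4D.

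What differed was the size of the rise, from 1.50-fold (KDM1B) to 4.27-fold (KDM2A) across a labelling time that was 3 times as long. The median over the 52 members was 2.99-fold (quartiles 2.72 and 3.38), against 2.96-fold over protein-coding genes and 3.20-fold over all genes tested. Methyltransferases had a median of 3.04-fold (35 tested) and demethylases of 2.95-fold (17 tested), with quartiles that overlapped (2.81 to 3.38 and 2.66 to 3.28). Among demethylases the 15 JmjC enzymes had a median of 3.001-fold and the 2 LSD1-type enzymes of 1.74-fold. Among methyltransferases those outside the PRMT family, grouped as lysine enzymes with SETD3 included, had a median of 3.16-fold. The 7 tested PRMT genes had a median of 2.85-fold. More than 3-fold was reached by 18 of 35 methyltransferases and 8 of 17 demethylases, and by 47.8% of protein-coding genes and 58.1% of all genes. With 15 min replicate 1 left out, KDM1B (log2 0.61, edgeR adjusted p = 0.0601) and SETD7 (1.52, adjusted p = 0.082) no longer passed. With 15 min replicate 2 left out, KDM1B (0.56, adjusted p = 0.0866) and KDM4D (1.06, adjusted p = 0.13) did not. SETD7 and KDM4D had 6 to 17 reads per library.

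**Figure D1:**
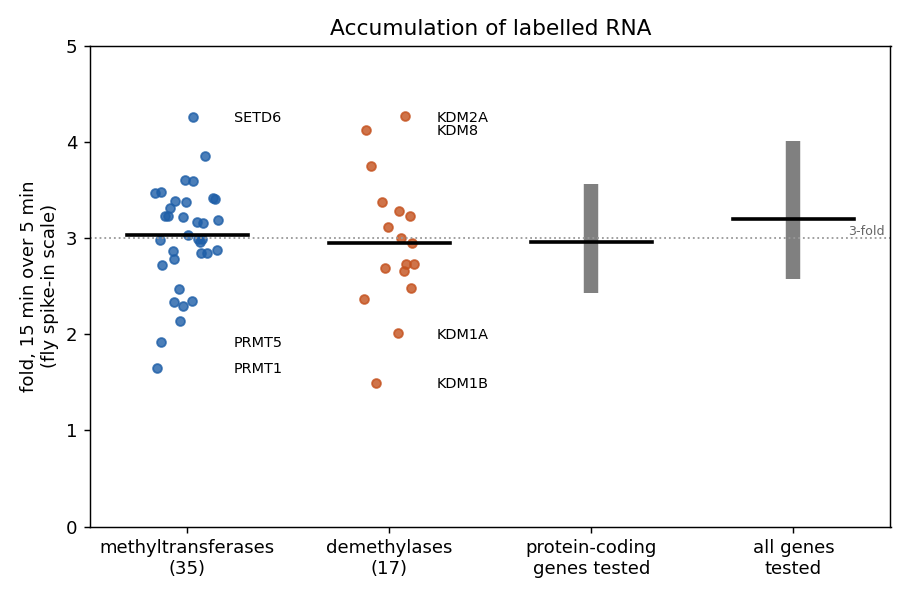
Fold rise of fly-scaled labelled reads from 5 to 15 min, 1 point per tested member, for 35 methyltransferases and 17 demethylases (points are spread sideways for visibility), beside the quartile range (grey bars) of protein-coding genes and of all genes tested. Black lines are medians and the dotted line is 3-fold. KDM1B at 1.50-fold and PRMT1 at 1.65-fold are lowest, and KDM2A at 4.27-fold and SETD6 at 4.26-fold are highest.

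Levels were compared between genes as labelled reads per exonic kb per 1000000 fly reads, called the level per kb here. The sources used here do not say which features were counted, so a level per kb rests on the exonic length of GENCODE 29 even if intronic reads were counted. The median level per kb, averaged over the 2 labelling times, was 132 for methyltransferases, 115 for demethylases, 84.8 for protein-coding genes and 85.2 for all genes tested. EZH2, the catalytic subunit of Polycomb repressive complex 2 (chr7:148807383-148884321, - strand, hg38), had the highest level of all members, at the 96.8th percentile of protein-coding genes. Its level per kb was 294 and 330 in the 5 min libraries and 1012 and 956 in the 15 min libraries. SETD5 came next at both label times, at 237 and 269, then 894 and 838. KMT2E, at 183 and 214, then 715 and 664, was the next on the level averaged over the label times and after 15 min, whereas after 5 min the mean of KDM1A lay above it. SETD5 and KMT2E are SET-domain proteins for which catalytic activity has been disputed. For EZH2, SETD5 and KMT2E the lowest 15 min value was above the highest 5 min value.

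**Figure D2:**
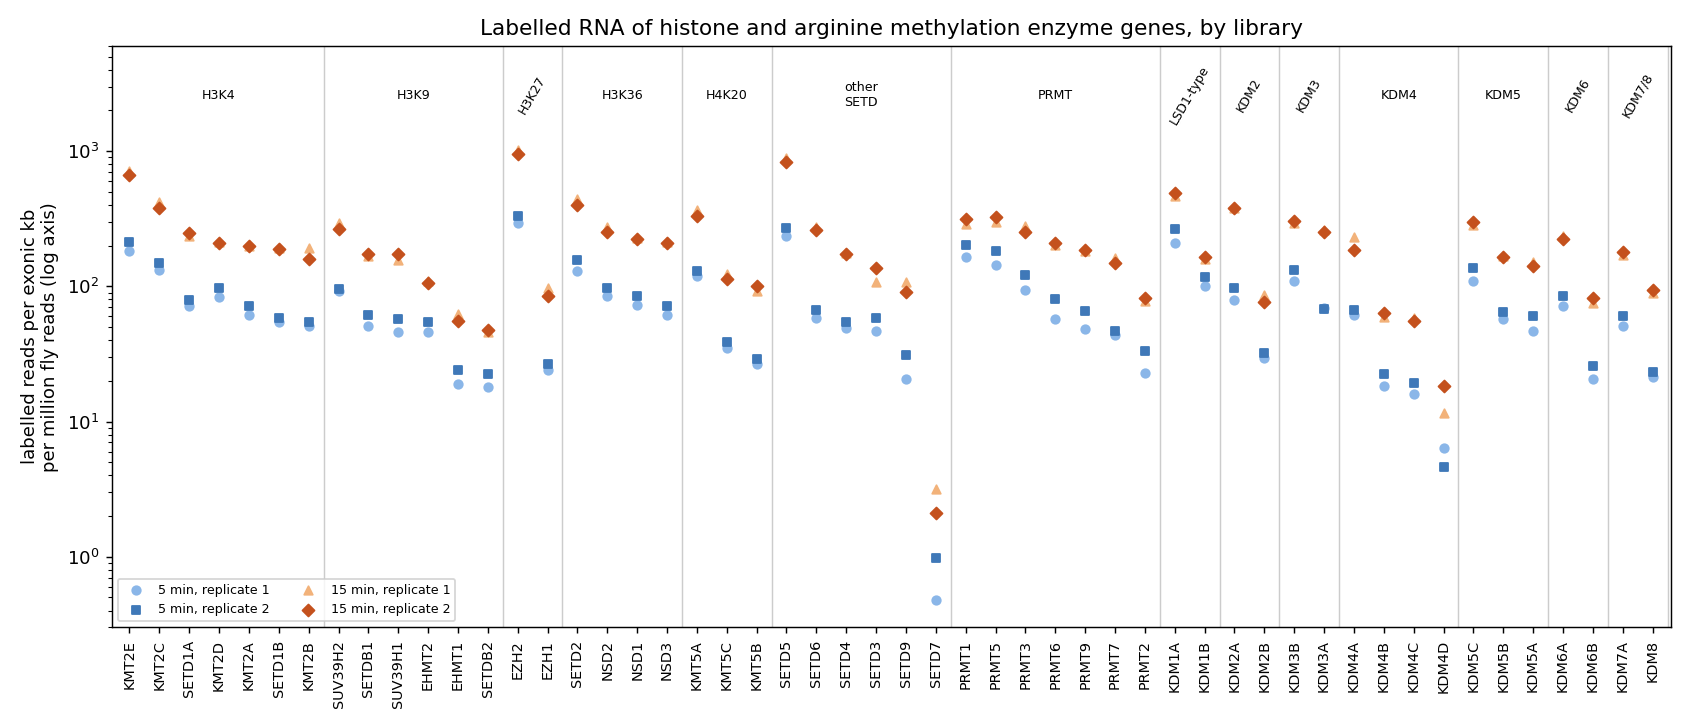
Level per kb of each member in each library on a log axis, by role, with 5 min and 15 min libraries in separate colours. EZH2 is highest and SETD7 is lowest of the members with reads.

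The other H3K4 methyltransferases lay below KMT2E in every library. KMT2C, a large subunit of an enhancer-bound complex (chr7:152134922-152436005, - strand), had a level per kb of 133 and 148 after 5 min and 419 and 381 after 15 min. KMT2A, the gene rearranged in mixed-lineage leukaemia, stood at 61.2 and 71.8, then 199.2 and 197. KMT2B, KMT2D, SETD1A and SETD1B lay between 51.3 and 96.7 after 5 min and between 160.3 and 249 after 15 min. All 7 H3K4 genes rose, with a median of 3.22-fold.

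The H3K9 group had a median level per kb of 93.8, below the 151 of the H3K4 group. SUV39H2, which trimethylates H3K9 in heterochromatin, was its highest member at 91.9 and 96.3, then 296 and 267. SETDB1 and SUV39H1 lay between 45.7 and 61.0 after 5 min, and EHMT2 (G9a) at 46.2 and 54.8, then 110.2 and 105.7. EHMT1 (GLP) and SETDB2 lay between 18.0 and 24.2 after 5 min and between 45.6 and 62.1 after 15 min. The median rise of the 6 genes was 2.85-fold.

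SETD2, which trimethylates H3K36 on transcribed genes (chr3:47016429-47163967, - strand), led the 4 H3K36 genes at 130.5 and 156, then 446 and 402. NSD1, NSD2 and NSD3, which write H3K36 dimethylation, lay between 61.4 and 97.9 after 5 min and between 210.3 and 274 after 15 min. KMT5A, which makes H4K20 monomethylation, stood at 119 and 131, then 365 and 329, above KMT5B and KMT5C, which extend that mark and lay between 26.9 and 38.8 after 5 min. The H3K36 and H4K20 groups rose by medians of 2.92-fold and 3.19-fold.

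The SETD genes outside these groups ranged widely, from SETD7 to SETD5. SETD7, which methylates histone and other proteins, was the lowest member with reads, with 6 and 11 reads after 5 min and 14 and 9 after 15 min. SETD9 was at 20.6 and 31.2, then 107.6 and 90.7, a rise of 3.85-fold. Among arginine methyltransferases PRMT1, which makes most asymmetric dimethylarginine in cells, stood at 164 and 203, then 289 and 314. PRMT5, which makes symmetric dimethylarginine, stood at 143 and 183, then 300.5 and 327. PRMT1 had the higher mean after 5 min and PRMT5 after 15 min, and the libraries of the 2 genes overlapped at both times. PRMT2, PRMT3, PRMT6, PRMT7 and PRMT9 lay between 22.9 and 121 after 5 min and between 78.5 and 277 after 15 min.

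KDM1A (LSD1), which removes methyl groups from mono- and dimethylated H3K4, had the highest level of the demethylases (chr1:23019443-23083689, + strand). It stood at 209.6 and 264 after 5 min and 465 and 487 after 15 min, at the 91.4th percentile of protein-coding genes. KDM2A, an H3K36 demethylase that binds unmethylated CpG islands, stood at 79.3 and 97.9, then 377 and 379. It had the second highest demethylase level after 15 min, but after 5 min KDM5C, KDM3B and KDM1B had higher means. KDM3B and KDM5C, which act on H3K9 and H3K4, were the highest of their families. KDM3B stood at 109 and 132, then 295 and 302, and KDM5C at 109.7 and 136, then 284 and 298. KDM6A, an H3K27 demethylase on the X chromosome, was at 71.2 and 84.5, then 234 and 225, and KDM7A at 51.3 and 60.7, then 170.4 and 179.

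The KDM4 genes act on trimethylated H3K9, and some of them also on H3K36. They had the lowest family level, with a median of 39.0 over 4 tested genes. KDM4A led them at 61.2 and 66.6, then 234 and 185, and the 15 min libraries differed more than those of most members. KDM4C stood at 15.98 and 19.2, then 58.4 and 55.2. KDM4D had 17 and 11 reads after 5 min and 11 and 17 after 15 min, too few for a precise level. The JmjC families rose by medians of 3.37-fold (KDM2), 3.05-fold (KDM3), 3.12-fold (KDM4), 2.73-fold (KDM5), 3.16-fold (KDM6) and 3.59-fold (KDM7A and KDM8).

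A gene that accumulates more slowly than the rest loses share of the labelled RNA between the label times. Share was measured as the CPM over the human reads of the genes tested, with that total scaled by TMM factors. It was tested with edgeR on the same scale. Of the 52 members, 5 gained share and 16 lost it at an adjusted p under 0.05, against 16.8% higher and 21.3% lower of all genes and 13.7% and 30.5% of protein-coding genes. The members' 16 of 52 lower was thus near the protein-coding background. Without a scaling factor on library totals the split was 10 higher and 10 lower, and the median log2 change of all genes was 0.13 instead of 0.03. The CPM of both 15 min libraries lay above both 5 min libraries for 12 members and below for 23, against 34.6% and 33% of all genes and 27.3% and 44.2% of protein-coding genes. The median log2 change in share was -0.06 over members, -0.05 over methyltransferases, -0.09 over demethylases, 0.03 over all genes and -0.08 over protein-coding genes.

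KDM1B (LSD2), the flavin-dependent relative of LSD1 known from oocytes and gene bodies (chr6:18155329-18223853, + strand), lost the most share. Its CPM was 120.3 and 118 after 5 min and 54.9 and 58.9 after 15 min, a log2 change of -1.07 ± 0.0863 (SE, edgeR adjusted p = 5.4e-33). PRMT1 (chr19:49675786-49689029, + strand) had 168 and 175 CPM after 5 min and 85.2 and 95.7 after 15 min, a change of -0.93 ± 0.0748 (adjusted p = 5.18e-33). Both genes had 15 min values far below their 5 min values, with replicates close together. On the fly scale both still rose, KDM1B by 1.50-fold and PRMT1 by 1.65-fold, so a lower share is a slower rise and not a loss of labelled RNA.

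PRMT5 (chr14:22920511-22929585, - strand) went from 106 and 114 CPM to 64.0 and 71.9, a log2 change of -0.70 ± 0.0846 (edgeR adjusted p = 3.27e-15). KDM1A went from 244 and 259 to 156 and 168 (-0.64 ± 0.066, adjusted p = 2.1e-20). EHMT2 went from 72.1 and 71.9 to 49.3 and 48.9 (-0.55 ± 0.0992, adjusted p = 2.77e-07). These 3 genes rose on the fly scale by 1.93-fold, 2.01-fold and 2.14-fold. In each of the 3 the label times did not overlap. KMT2D, the paralogue of KMT2C, went from 365 and 357 to 269 and 272 (-0.42 ± 0.0615, adjusted p = 1.94e-10), and KDM5C from 205 and 214 to 152 and 165 (-0.41 ± 0.0672, adjusted p = 2.06e-08). PRMT3 (-0.34, adjusted p = 0.00012) and KDM3B (-0.34, adjusted p = 7.43e-06) also lost share. These 9 genes, KDM1B, PRMT1, PRMT5, KDM1A, EHMT2, KMT2D, KDM5C, PRMT3 and KDM3B, passed in the same direction under all 9 alternative settings tried.

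The other 7 that lost share had smaller or less precise changes, and each was lost under some setting. None of the 7 passed with DESeq2. KDM5B, KDM2B, EHMT1, KDM5A and KMT2C also did not pass in edgeR with library totals (adjusted p = 0.211, 0.22, 0.381, 0.342 and 0.626). With library totals SETDB2 did not pass either, whereas SETD3 did. SETDB2, which methylates H3K9, went from 25.8 and 27.1 CPM to 18.7 and 20.1 (-0.45 ± 0.155, edgeR adjusted p = 0.0128). It did not pass without 15 min replicate 1 (-0.40, adjusted p = 0.119) or 5 min replicate 2 (-0.42, adjusted p = 0.0854). SETD3, an actin histidine methyltransferase, changed by -0.42 (adjusted p = 0.000768), and by -0.25 (adjusted p = 0.182) without 15 min replicate 1. KDM2B changed by -0.24 (adjusted p = 0.0221), with adjusted p of 0.145 without 15 min replicate 2 and 0.153 without 5 min replicate 1. KDM5B changed by -0.20 (adjusted p = 0.00509), with 0.0579 without 15 min replicate 1. EHMT1 (-0.20, adjusted p = 0.0485) did not pass without 15 min replicate 2 (0.25) or 5 min replicate 2 (0.322). KDM5A (-0.20, adjusted p = 0.0287) did not pass without 15 min replicate 1 (0.0553), 15 min replicate 2 (0.119) or 5 min replicate 2 (0.274). KMT2C (-0.14, adjusted p = 0.0472) did not pass without 15 min replicate 1 (0.06), 15 min replicate 2 (0.255) or 5 min replicate 1 (0.204).

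Gains of share were fewer. KDM2A (chr11:67119269-67258087, + strand) went from 176 and 183 CPM to 241 and 249, a log2 change of 0.45 ± 0.0657 (edgeR adjusted p = 1.61e-10), and rose 4.27-fold on the fly scale. SETD6, which methylates the NF-kappaB subunit RelA (chr16:58515479-58521181, + strand), went from 63.3 and 61.1 to 85.2 and 83.6 (0.44 ± 0.0913, adjusted p = 1.08e-05), a rise of 4.26-fold. Both passed under all 9 alternative settings. KDM3A, an H3K9 demethylase induced by hypoxia, went from 199 and 165 to 216 and 215 (0.25 ± 0.0663, adjusted p = 0.000887). Its 5 min libraries differed widely, and with DESeq2 its change of 0.24 did not pass (Wald test, adjusted p = 0.0951). Without 5 min replicate 2 its change was 0.11 (adjusted p = 0.383).

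KDM8, a JmjC protein also known as a hydroxylase, went from 18.4 and 16.8 CPM to 22.2 and 24.02 (0.39 ± 0.163, edgeR adjusted p = 0.0437). KMT2E went from 363 and 355 to 406 and 389 (0.15 ± 0.0608, adjusted p = 0.0409). With DESeq2 neither KDM8 nor KMT2E passed (Wald test, adjusted p = 0.284 and 0.233). Neither passed with any 1 library left out. For KDM8 the adjusted p was then 0.0996 and 0.268 without 15 min replicates 1 and 2, and 0.092 and 0.255 without 5 min replicates 1 and 2. For KMT2E it was 0.349 and 0.109, and 0.179 and 0.259. The remaining 31 tested members, among them EZH2 (0.01, adjusted p = 0.95), SETD5 (0.12, adjusted p = 0.0898) and SETD9 (0.30, adjusted p = 0.194), did not pass in either direction.

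**Figure D3:**
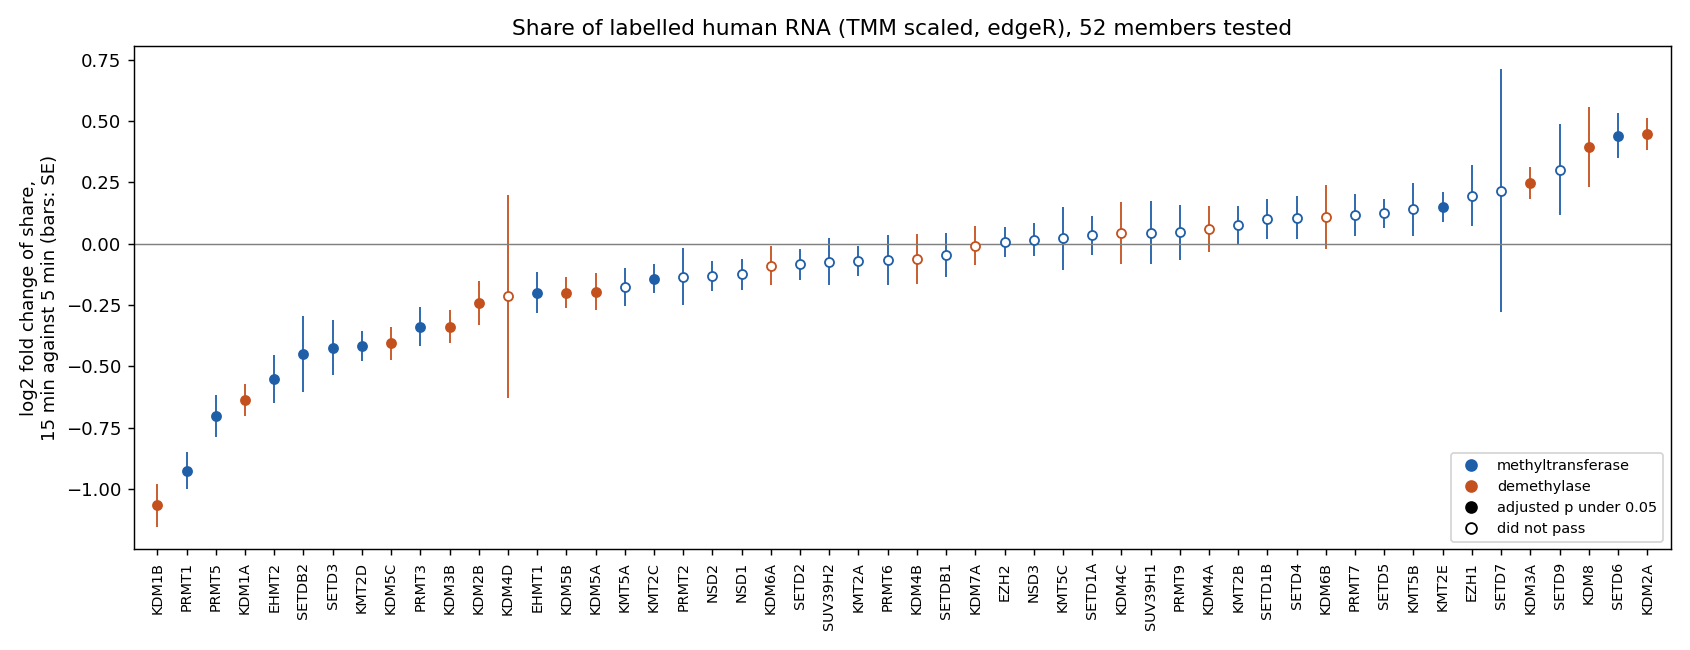
Log2 change in share of labelled human RNA, 15 min against 5 min, for the 52 tested members in order of size, with the standard error of the edgeR fit as bars and filled points for an adjusted p under 0.05. KDM1B at -1.07 and PRMT1 at -0.93 lie at the left end, and SETD6 at 0.44 and KDM2A at 0.45 at the right end.

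By role, the losses of share took in both LSD1-type genes, 3 of 3 KDM5 genes, 3 of 7 PRMT genes, 3 of 6 H3K9 genes and 2 of 7 H3K4 genes, to be read against the 30.5% of protein-coding genes and 21.3% of all genes that lost share. Neither direction was called among the 2 H3K27, 4 H3K36, 3 H4K20, 4 KDM4 and 2 KDM6 genes tested, either by the main edgeR fit or by DESeq2. In that edgeR fit, 2 of these 15 genes had an unadjusted p under 0.05 (NSD2, KMT5A). When a term for replicate number was added to it, NSD2 was called lower (edgeR adjusted p = 0.0287). With library totals in place of TMM factors EZH1 passed as higher (0.30, edgeR adjusted p = 0.0434). Methyltransferases had 2 higher and 9 lower of 35, and demethylases 3 higher and 7 lower of 17. The KDM2 and KDM3 families each held 1 gene that gained and 1 that lost.

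Summed over genes, methyltransferases gave 22455 and 23404 reads in the 5 min libraries and 26139 and 24152 in the 15 min libraries, and demethylases 8724 and 9199, then 9540 and 9179. The methyltransferase sum was 2.57 and 2.54 times the demethylase sum after 5 min and 2.74 and 2.63 times after 15 min. The label times did not overlap, but with 2 libraries each no exact test can reach 0.05, and none is given. The members together took 0.694% to 0.718% of human reads in the 4 libraries. Per 1000 fly reads, methyltransferases went from 27.1 ± 2.89 to 80.1 ± 2.72 (SD, n = 2) and demethylases from 10.6 ± 1.21 to 29.8 ± 0.159, rises of 2.96-fold and 2.82-fold with propagated SDs of 0.331 and 0.324. These rises differed by less than either SD, and both SDs include the spread of the fly totals that the classes share.

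Paralogue pairs were compared per exonic kb, so which copy stood higher depends on the exonic length used. EZH2 stood above EZH1 by 12.3-fold ± 0.101 after 5 min and 10.8-fold ± 0.664 after 15 min (SD, n = 2). KDM1A stood above KDM1B by 2.17-fold ± 0.118 and then 2.92-fold ± 0.0135. KDM2A stood above KDM2B by 2.88-fold ± 0.259 and then 4.65-fold ± 0.383. KDM6A stood above KDM6B by 3.36-fold ± 0.104 and then 2.93-fold ± 0.25. In these 4 pairs the ratio did not overlap between the label times.

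KMT2C stood above KMT2D by 1.57-fold ± 0.0459 and then 1.89-fold ± 0.0996. EHMT2 stood above EHMT1 by 2.36-fold ± 0.138 and then 1.85-fold ± 0.103, and KDM3B above KDM3A by 1.76-fold ± 0.248 and then 1.16-fold ± 0.0525. These ratios too did not overlap between the label times. No test of these ratios was made and no share over other gene pairs was computed, so nothing is read from the separation. The other 7 pairs had overlapping ratios. SUV39H2 was above SUV39H1 (1.85-fold and 1.71-fold), KMT2A above KMT2B (1.25 and 1.14), SETD1A above SETD1B (1.34 and 1.28), NSD2 above NSD1 (1.17 and 1.16), KMT5C above KMT5B (1.33 and 1.22), KDM4A above KDM4B (3.15 and 3.44) and KDM5B above KDM5A (1.14 and 1.13). In reads not divided by length, EHMT1 exceeded EHMT2 (375 and 433 against 302 and 321, then 440 and 378 against 256 and 238). KMT5B exceeded KMT5C (208 and 201 against 151 and 149, then 254 and 270 against 188 and 166). KDM3A had 1123 and 1045 reads after 15 min, against 749 and 743 for KDM3B. After 5 min the order of KDM3A and KDM3B differed between libraries. Every other pair kept the same order in reads.

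A production rate deposited by the authors, 1 value per gene with no unit and no replicates, was at hand for 51 members and for 11777 genes in all. The median rate was 0.0179 over members, 0.0183 over 35 methyltransferases (quartiles 0.0115 and 0.0334), 0.0143 over 16 demethylases (0.0068 and 0.0252), 0.0114 over all genes and 0.0123 over protein-coding genes. A rate above the series median was held by 26 of 35 methyltransferases (74.3%) and 9 of 16 demethylases (56.3%). The same held for 52.4% of protein-coding genes with a rate. The highest rates were those of EZH2 (0.0941), SETD5 (0.0871), KMT2E (0.0714), PRMT6 (0.06) and PRMT1 (0.0466). EZH2, SETD5 and KMT2E were also the 3 highest members by the level averaged over the label times, but not after 5 min, when KDM1A stood above KMT2E. The lowest were those of SETD7 (0.000262), KDM1A (0.000732), KDM4C (0.00165), SUV39H1 (0.0035) and PRMT9 (0.00432).

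KDM1A departed most from the order of levels. By the level averaged over the label times it was the 4th highest of the members, and it was the 50th of 51 by rate, at the 8.12th percentile of all rates. Divided by its level, its rate lay at the 0.233th percentile of 10737 genes. SUV39H1 (3.4), PRMT9 (3.73), KDM4C (4.95) and PRMT5 (5.39) followed at the low end, and PRMT6 (98.7) and KDM5B (97.6) stood at the high end of the same percentile scale. Between paralogues the rate of EZH2 was 13.7 times that of EZH1, the rate of SUV39H2 7.02 times that of SUV39H1, and the rate of KDM1B 15.1 times that of KDM1A, although KDM1A had the higher level in every library.

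**Figure D4:**
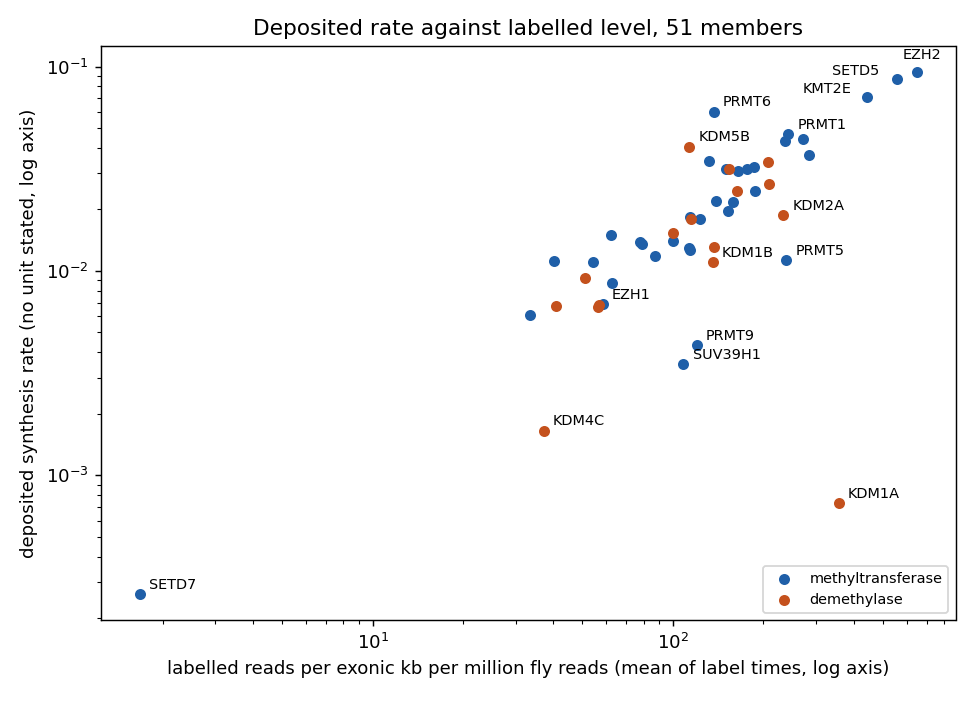
Deposited production rate against the level per kb of the 51 members with both, on log axes, with methyltransferases and demethylases in separate colours. KDM1A lies far below the other members of its level, and EZH2, SETD5 and KMT2E lie at the upper right.

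Partner proteins, substrate supply and readers of the marks were described from lists. All tested genes of the 7 lists rose on the fly scale, as did 98.4% of all genes and 98.5% of protein-coding genes, so these counts say nothing about the lists. For share, the background was 13.7% higher and 30.5% lower among protein-coding genes and 16.8% and 21.3% among all genes, and each list's count below stands beside it as a description. Of 11 partners of Polycomb repressive complex 2, 1 gained share and 3 lost it (median log2 change -0.07). PHF19, a recruiting subunit, had the highest level per kb of the list at 545 and a share change of -0.00, RBBP4, a histone-binding subunit, changed by -0.48 (edgeR adjusted p = 9.36e-14), and PHF1 by 0.26 (adjusted p = 0.0165). Of 12 partners of the H3K4 methyltransferase complexes 7 lost share and 1 gained it (median -0.20), with HCFC1 at -0.72, ASH2L at -0.28 and PAXIP1 at 0.26.

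Of 11 partners of LSD1 in the CoREST and related complexes, 7 lost share and the other 4 did not pass (median -0.30). HDAC1 changed by -0.30, RCOR1 by -0.36 and HDAC2 by -0.48 (edgeR adjusted p = 8.12e-13). Of 6 PRMT partners 1 lost share and 1 gained it (median -0.02). These were CLNS1A, a partner of PRMT5 (-0.38), and BTG2, a partner of PRMT1 (0.56), while RIOK1 stood at -0.16 (adjusted p = 0.13).

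Of 7 tested genes of methyl donor supply, 5 lost share and 1 gained it (median -0.22). MAT2A, which makes S-adenosylmethionine, had a level per kb of 2597, rose 4.16-fold and gained share (0.40, edgeR adjusted p = 6.55e-10). AHCY, which clears S-adenosylhomocysteine, lost share (-0.68, adjusted p = 5.24e-18). Of 27 readers of methylated lysine or arginine, 3 gained share and 6 lost it (median -0.06). CBX5, a heterochromatin protein, had the smallest p of those that lost share (-1.22, adjusted p = 4.77e-70) and rose 1.34-fold on the fly scale, whereas BRPF1 rose 4.54-fold and gained share (0.53, adjusted p = 1e-11). SND1, a reader of methylarginine, changed by -0.46 and CBX3 by -0.29. Of 16 other methylation enzymes with symbols outside the rule, 3 gained and 3 lost share (median -0.00), among them ASH1L (0.28), CARM1 (-0.64) and JMJD1C (-0.15, adjusted p = 0.0478).

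No source used here states whether counting used strand, and reads of overlapping genes cannot be told apart. In GENCODE 29, 7 members share 10% or more of their exonic bases with another gene. KDM4A shares 40.2% with AL451062.3 on its own strand, PRMT5 27.1% with PRMT5-AS1 on the opposite strand, SETD6 21.4% with CNOT1 on the opposite strand and SUV39H1 20.3% with AC231533.1. KMT2A shares 17.9%, KDM8 14.5% and SETDB1 13.4% with neighbours. The values of these genes, and the gains of SETD6 and KDM8, are uncertain to that extent. Across the 52 members the length of the gene and its change in share had a Spearman rho of -0.10, against -0.17 over protein-coding genes and -0.34 over all genes, as a description across genes, which are not independent replicates.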

How the data were processed

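For 4 TT-seq libraries the authors deposited whole-number gene counts, human and fly, with no normalization. A production rate per gene, also deposited by the authors, was treated as a score, since its header names no unit. The submitters' processing notes list STAR 2.7, Subread 2.0.1, featureCounts, edgeR and bcl2fastq 2.17.1.14, and builds hg38 and dm6, without saying what each was used for. Symbols, positions and exonic lengths came from GENCODE 29, joined by gene identifier. In the rates, 6 members had another symbol and 1 had none, and these were joined by identifier.

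Genes passed filterByExpr at a minimum count of 10 (17322 genes). Robust quasi-likelihood fits in edgeR 4.0.16 (R 4.3.3) had label time as the only term, with fly read totals as library sizes (fly scale) or with TMM factors (share). Two-sided p-values were adjusted over all genes tested (Benjamini-Hochberg, threshold 0.05). The common biological coefficient of variation was 9.77% on the fly scale and 4.08% for share. Fits were tested on simulated data. Replicates of a label time were kept apart, as their counts differed beyond chance sampling (chi-square over degrees of freedom 1.62 and 1.78). Limits from counts cover counting error only, as reads carry no stated molecular identifiers.

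The members and lists were chosen with earlier results of these data known, and roles were assigned by hand. The rule for named genes took the highest member of each role group, the 6 largest gains and losses of share, the 5 largest and smallest rises, named paralogue pairs, the 5 highest and lowest rates and, in each list, the 2 highest levels and the smallest p in each direction. Values per library are given for many of these members, ranges or ratios for others, and summaries for list genes. Other members named outside this rule were chosen after their values were seen. KDM5D was left out.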

Additional observations from a re-analysis of the deposited data

How the results depend on the processing

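All 52 members rose on the fly scale under DESeq2 1.42.0, the replicate block, no filter on low counts and fly median-ratio factors, and 50 to 52 did with 1 library left out. The median log2 rise was then 1.48 to 1.74 for methyltransferases and 1.44 to 1.69 for demethylases. A lone library in a label time is assumed to vary like the other group. Deviations of same-numbered libraries from their label time means had a correlation of 0.0518 over 17322 genes. Counting error can hide a shared deviation, so this does not settle whether replicate numbers pair the libraries. With the replicate block, 6 members gained share and 18 lost it, against 5 and 16, and no call on the fly scale changed. The added calls included NSD2 (-0.13, adjusted p = 0.0287). Members gaining and losing share numbered 2 and 9 with DESeq2 and 3 and 14 with no filter on low counts. They numbered 3 and 17 with DESeq2 size factors in edgeR and 10 and 10 with library totals. With 1 library left out fewer members gained and fewer lost share, and the same held over all genes. Over all 17322 genes DESeq2 called 923 higher and 2370 lower and the replicate block 3080 and 3878, against 2915 and 3692. DESeq2 size factors gave 2754 and 3772, library totals 4233 and 2805, and no filter 2550 and 3543 of 32494 genes. Among the 45 members whose exons share under 10% of bases with other genes, 3 gained and 15 lost share. That choice was made after seeing the data, and no background under it is given. The methyltransferase to demethylase ratio was 2.53 per kb and 2.26 without the PRMT genes after 5 min, and 2.75 and 2.43 after 15 min. Without the PRMT genes the median rate of methyltransferases was 0.019. The cause of these shifts was not tested.

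Sign changes of the log2 change in share occurred in 10 of the 37 members whose single-gene values were followed across settings, and none of the 10 had passed in either direction. Members outside those 37 were not followed singly. EZH2 was -0.0049 with DESeq2, -0.0025 with no filter and -0.0047 with DESeq2 size factors. With library totals KDM4B was 0.040, KDM6A 0.013, KMT2A 0.031 and SUV39H2 0.029. With 1 library left out the range was -0.047 to 0.020 for EZH2, -0.10 to 0.17 for KDM4A, -0.17 to 0.0083 for KDM4B, -0.043 to 0.15 for KMT2B, -0.046 to 0.047 for KMT5C, -0.048 to 0.086 for SETD1A and -0.072 to 0.13 for SUV39H1.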

Other observations

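Several noncoding genes are named after members. KMT2E-AS1, antisense to KMT2E (chr7:105013425-105014321, - strand, hg38), had 76 and 72 reads in the 5 min libraries and 140 and 162 in the 15 min libraries. It rose 5.52-fold on the fly scale and gained share (log2 0.81 ± 0.156, edgeR adjusted p = 1.64e-06). KDM4A-AS1, antisense to KDM4A (chr1:43699765-43708138, - strand), had 53 and 53 reads, then 93 and 102. It rose 4.97-fold and gained share (0.66 ± 0.184, adjusted p = 0.00147), whereas KDM4A itself changed in share by 0.06 (adjusted p = 0.654). PRMT5-AS1 had 47 and 61 reads, then 64 and 69, KDM5C-IT1, in an intron of KDM5C, 24 and 24, then 39 and 35, and KDM7A-DT 47 and 60, then 43 and 52. These 3 rose on the fly scale and passed in neither direction in share. EHMT2-AS1 had 0 to 4 reads. Because the sources used here do not state strand counting, reads of an antisense gene and its partner cannot be told apart where their exons overlap.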
